A study of Mus musculus with 16 samples.

Results

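The genes described here are 10 members of the Hippo signalling pathway and its output, taken by symbol from a listed set: Yap1, Wwtr1, Tead1, Lats2, Amotl2, Ajuba, Ankrd1, Fjx1, Axl and Nuak2. All 10 were found among the 55291 genes of the count table, and their RNA was followed through 16 libraries of mouse liver and liver tumour in 8 groups of 2. The livers came from wild-type mice (WT), Arid1a knockout mice (Arid1a KO) and double knockout mice lacking Arid1b as well (Arid1a/b DKO). The products of these genes are alternative members of BAF, a complex that remodels chromatin. After tamoxifen, DMSO-treated WT and Arid1a KO livers were collected at 9 and at 30 days, and those of the double knockout, with the same vehicle, at 9 days. A further WT group and a further Arid1a KO group received an agonist of a receptor spelled NR1L3 in the labels. Both agonist groups are treated as 30-day livers, although the titles of the WT agonist samples say 9 days. The tumours are labelled Arid1a KO/BcatEXON, with no time point or treatment. The sources used here do not give the Cre driver, the deleted exons or the age of the mice.

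Hippo signalling is a kinase cascade that limits organ size. Its last kinases, LATS1 and LATS2, phosphorylate the coactivators YAP (Yap1) and TAZ (Wwtr1) and so keep them in the cytoplasm. Coactivators that reach the nucleus bind DNA through TEAD factors such as TEAD1 and raise the transcription of target genes, several of which feed back on the pathway. In mouse liver, activation of YAP is a classical cause of liver overgrowth and of tumours. RNA levels do not show how much YAP or TAZ is phosphorylated or nuclear.

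TEAD factors recognise the M-CAT element, and its letters CATTCC, or GGAATG on the other strand, were searched on both strands of RefSeq promoters (GRCm38.p6, the 250 bases before to the 50 after a transcription start). Promoters of 7 of the 10 genes were in the table, those of Yap1, Wwtr1, Ankrd1, Amotl2, Ajuba, Lats2 and Axl. All 7 genes held a match, beside 16.6% of all genes of the table and 14.9% of the genes tested in liver. By promoter it was 8 of 9. The 2 Wwtr1 promoters overlap and hold the same match, and a second Lats2 promoter held no match. Among all 32851 promoters of the table, 14.7% held one, and among the 15616 promoters of genes tested in liver 12.6% did. The stretches around the matches are shown because they are what these genes share in sequence, 5′ to 3′ on the gene's strand with the matched letters in capitals.
Yap1: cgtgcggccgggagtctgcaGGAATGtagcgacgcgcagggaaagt
Wwtr1: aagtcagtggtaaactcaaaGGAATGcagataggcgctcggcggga
Ankrd1: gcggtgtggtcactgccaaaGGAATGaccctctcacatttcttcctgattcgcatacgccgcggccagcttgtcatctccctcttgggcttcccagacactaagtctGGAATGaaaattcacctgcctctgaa
Amotl2: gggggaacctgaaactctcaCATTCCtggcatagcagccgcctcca
Ajuba: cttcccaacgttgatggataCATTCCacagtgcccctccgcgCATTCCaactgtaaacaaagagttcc
Lats2: ccgtGGAATGccaacaatgt
Axl: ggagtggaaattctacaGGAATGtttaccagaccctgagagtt

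Ankrd1 and Ajuba each carried a pair of matches and the other 5 genes 1 each. The stretches lie at chr9:8004712-8004757 (Yap1, minus strand), chr3:57576021-57576066 (Wwtr1, minus), chr19:36119942-36120074 (Ankrd1, minus), chr9:102717719-102717764 (Amotl2, plus), chr14:54577800-54577867 (Ajuba, minus), chr14:57746104-57746123 (Lats2, minus) and chr7:25788941-25788983 (Axl, minus). The Lats2 match begins at base 5 of the transcript, and the others begin between 233 and 65 bases before the start. The AP-1 letters TGACTCA or TGAGTCA, searched in the same way, were in 0 of the 9 promoters, against 5.2% of all promoters. The same M-CAT letters were in 3 of 12 promoters of a list of Hippo kinases and their adaptors, 5 of 8 of TEAD family and VGLL genes, 2 of 15 of polarity and junction genes, 2 of 10 of cytoplasmic partners of YAP, and 4 of 17 of a list of other YAP/TAZ targets. A match describes the letters of this window and not a bound site.

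**Figure D1:**
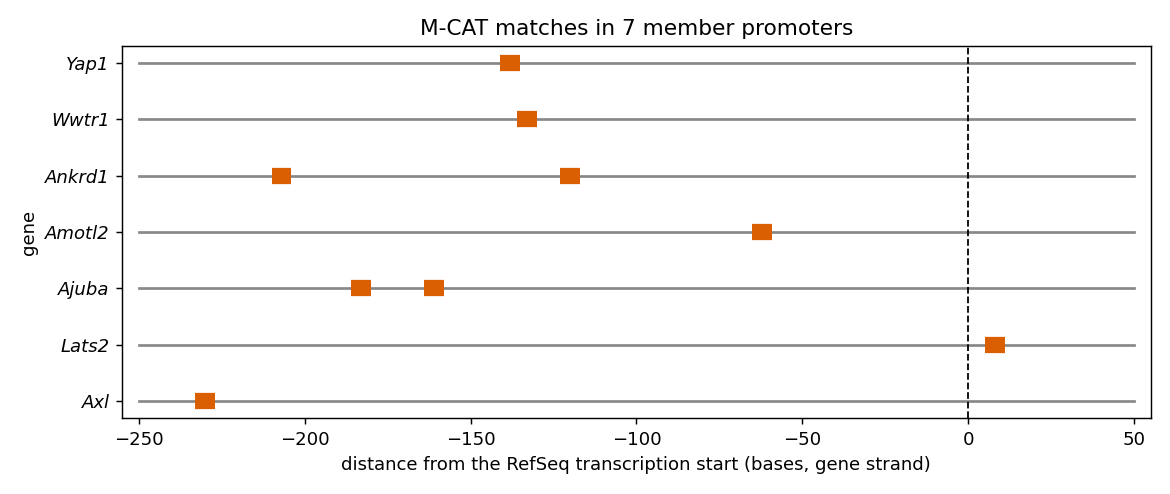
Positions of M-CAT letters in the promoters of 7 genes, 1 line per gene; the x axis is the distance in bases from the RefSeq transcription start (dashed), and each block is 1 match. Ankrd1 and Ajuba have a pair of matches each, and the Lats2 match lies after the start.

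Total counts ran from 7.57 M to 47.77 M reads per library, lowest in tumour replicate 1 and highest in Arid1a/b DKO replicate 2, so that 3 counts stand for 0.0481 to 0.363 CPM, read counts scaled to the size of the library. Levels are CPM with TMM scaling, a correction for library composition, over the 16 libraries. Differences are log2 fold changes from edgeR's quasi-likelihood test with Benjamini-Hochberg adjustment over all genes tested, given ± SE, and a gene is called at an adjusted p under 0.05. All 10 genes passed the low-count filter, but Ankrd1 did so through 5 of the 14 liver libraries and Fjx1 through 3, which include both Arid1a/b DKO libraries and no WT library. As a check of the labels, gene-level Arid1a was not called lower in Arid1a KO livers (87.5 and 90.1 CPM at 9 days, against 72.2 and 77.0 in WT). At 30 days it was 95.3 and 76.5 CPM against 105 and 86.4 (log2 fold change -0.15 ± 0.18, adjusted p = 0.94), and under agonist 82.4 and 68.7 against 94.2 and 75.4 (-0.16 ± 0.18, adjusted p = 0.674). In the tumours it was 55.9 and 63.7 CPM (log2 fold change -0.50 against WT vehicle livers, adjusted p = 0.0364). The deleted stretch is not given, so this count does not test the deletion, and the groups are called by their labels. Arid1b was 24.5 and 25.7 CPM in Arid1a/b DKO and 38.1 and 52.8 in WT at 9 days (log2 fold change -0.85 ± 0.28, adjusted p = 0.0439). Ctnnb1, which encodes beta-catenin, was 178 and 281 CPM in the tumours and 272 and 262 in 9-day WT livers (-0.41, adjusted p = 0.139 against WT vehicle livers). The samples carry the label hepatocytes but are whole tissue, and markers of other cell types were present in every group, so fewer cells of a type and less RNA per cell cannot be told apart.

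Per kilobase of exon, the most abundant of the 10 genes in 9-day WT livers were Axl at 11.05 ± 3.85 CPM per kb (SD, n = 2), Yap1 at 10.9 ± 0.152 and Amotl2 at 9.54 ± 0.564. Axl overlapped both of the others, while both Yap1 libraries lay above both Amotl2 libraries. Nuak2 (6.08 ± 0.909), Ajuba (5.53 ± 0.212) and Wwtr1 (5.12 ± 0.551) followed, again with overlapping spreads. Lats2 (1.76 ± 0.0629) and Tead1 (1.49 ± 0.0997) were lower, and Ankrd1 (0.0862 ± 0.0751) and Fjx1 (0.0358 ± 0.0219) were near the limit of detection, with 8 and 4 counts over both libraries. In the tumours the order differed, with Ajuba at 20.7 ± 7.33 CPM per kb, Wwtr1 at 11.4 ± 4.42, Yap1 at 8.29 ± 4.74 and Amotl2 at 4.41 ± 1.67, followed by Axl at 3.64 ± 0.650.

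**Figure D2:**
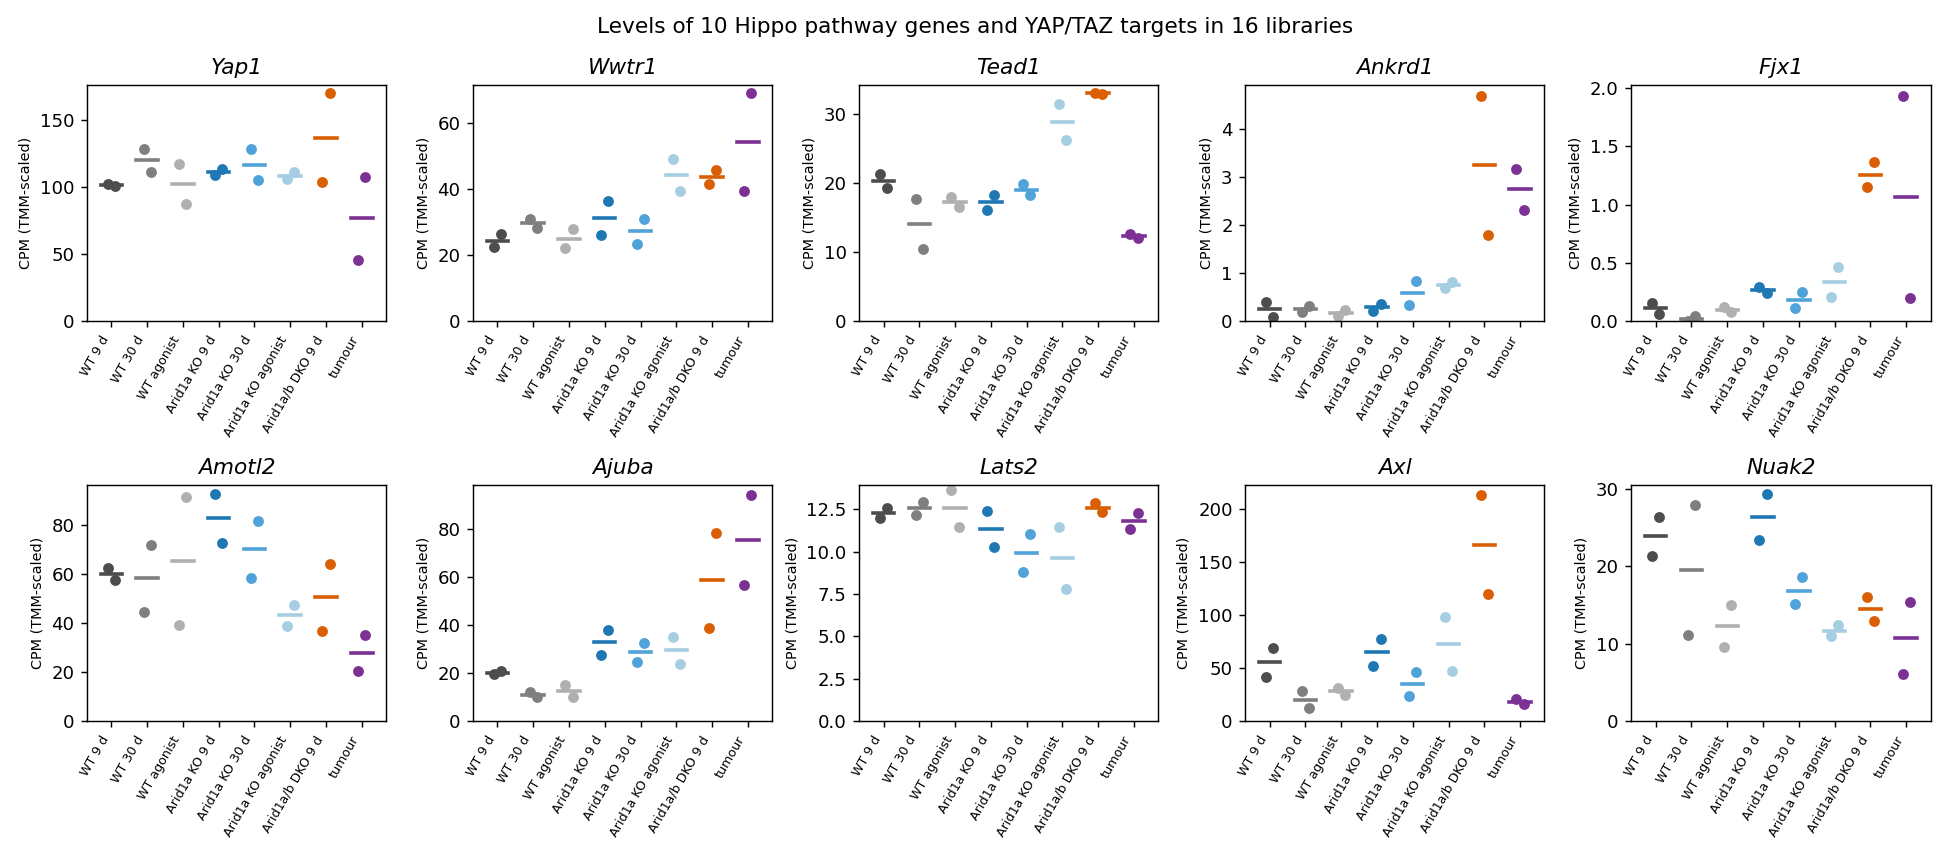
Level of each of the 10 genes in CPM (TMM-scaled, y axes from 0) in the 8 groups; each point is 1 library and the bar is the mean of 2. Ankrd1 and Fjx1 are near 0 in WT livers, the 2 Arid1a/b DKO libraries are the highest for Tead1 and Axl, and both tumour libraries are the lowest for Amotl2.

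Loss of both Arid1a and Arid1b was accompanied by higher RNA of 6 of the 10 genes at 9 days, and none of the 10 was called lower. Ankrd1, Fjx1, Ajuba, Axl, Wwtr1 and Tead1 rose against 9-day WT livers, where 26.4% of all genes tested were called and 12.6% were called higher. Against 9-day Arid1a KO livers, which share the lost Arid1a, Ankrd1, Fjx1 and Tead1 rose, with 22% of all genes called and 9.92% called higher. The median log2 fold change of the 10 genes was 0.77 against WT, beside 0.01 for all genes tested. The 10 genes were chosen with earlier results of these data known, so the counts and the median are descriptions. Ankrd1 and Fjx1 are in these counts and in the median, although they passed the low-count filter through 5 and 3 liver libraries. These include both Arid1a/b DKO libraries and no WT library.

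Yap1, the main coactivator, did not pass the test in Arid1a/b DKO livers. Its level was 104 and 170 CPM there, 102 and 100.3 in 9-day WT and 109 and 113 in 9-day Arid1a KO livers. The second Arid1a/b DKO library was the highest of all 16, while the first lay within the range of the other livers (log2 fold change against WT 0.44 ± 0.23, adjusted p = 0.186). Without Arid1a/b DKO replicate 1 the difference was called, at 0.75 with an adjusted p of 0.0412. Wwtr1, which encodes TAZ, was 41.6 and 45.9 CPM in Arid1a/b DKO livers against 22.6 and 26.3 in WT, and the groups did not overlap. Its rise was 1.79-fold (log2 0.84 ± 0.22, adjusted p = 0.0183). The adjusted p was 0.0886 without Arid1a/b DKO replicate 2, 0.142 without WT replicate 1 and 0.0526 without WT replicate 2. In 9-day Arid1a KO livers Wwtr1 was 26.3 and 36.4 CPM, overlapping WT and below Arid1a/b DKO, and the difference of Arid1a/b DKO from Arid1a KO was not called (0.49 ± 0.22, adjusted p = 0.136).

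Tead1, the DNA-binding partner, was 33.0 and 32.8 CPM in Arid1a/b DKO livers, the highest 2 values of the series. WT livers of 9 days had 21.2 and 19.3 CPM and Arid1a KO livers 16.1 and 18.3. The log2 fold change was 0.70 ± 0.23 against WT (adjusted p = 0.0444) and 0.94 ± 0.23 against Arid1a KO (adjusted p = 0.0163). Both calls ended when any 1 of the 4 libraries compared was left out, with fold changes of 0.64 to 0.76 and 0.84 to 1.03 and adjusted p up to 0.178 and 0.121. With all 16 libraries in the fit, the adjusted p against WT was 0.0503.

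Among the regulators, Ajuba encodes a LIM protein that binds LATS kinases and restrains them. It measured 39.0 and 78.4 CPM in Arid1a/b DKO livers and 19.6 and 20.7 in WT, without overlap, a 2.92-fold rise (log2 1.54 ± 0.35, adjusted p = 0.00918). The larger part of it came from replicate 2: without that library the value was 0.92 with an adjusted p of 0.0781, and without WT replicate 1 it was 1.497 with an adjusted p of 0.0722. Arid1a KO livers of 9 days had 27.7 and 38.1 CPM, and the difference of Arid1a/b DKO from them was 0.84 ± 0.34 (adjusted p = 0.102; 1.26 and 0.0324 without Arid1a/b DKO replicate 1). Lats2, a kinase that phosphorylates YAP and TAZ and is itself a YAP/TAZ target, was 12.9 and 12.3 CPM in Arid1a/b DKO livers and 11.99 and 12.6 in WT (log2 fold change 0.04 ± 0.23). Amotl2, an angiomotin that binds YAP and holds it outside the nucleus, was 36.9 and 64.4 CPM in Arid1a/b DKO livers and 62.5 and 57.5 in WT. It did not pass the test (-0.24 ± 0.39, adjusted p = 0.687).

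Among the targets of the 10 genes, Ankrd1 and Fjx1 had the highest fold changes, with overlapping errors. Both passed the low-count filter only through libraries in which they were high. These include both Arid1a/b DKO libraries and no WT or 9-day Arid1a KO library. Their calls here describe their levels and are not read as support. Ankrd1, a stress-responsive ankyrin repeat gene often used as a YAP readout, was 4.69 and 1.80 CPM in Arid1a/b DKO livers, with 308 counts over both libraries. The WT libraries of 9 days had 0.402 and 0.0955 CPM, 8 counts in all, and the Arid1a KO libraries 0.222 and 0.361. The log2 fold change was 3.92 ± 0.75 against WT (adjusted p = 0.00425) and 3.40 ± 0.71 against Arid1a KO (adjusted p = 0.00757). Against WT it was called in each of 11 alternative analyses, with values of 2.99 to 5. Against Arid1a KO the adjusted p was 0.0691 without Arid1a KO replicate 1 and 0.0539 without replicate 2.

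Fjx1, a secreted kinase-like protein of the Four-jointed family, was 1.15 and 1.36 CPM in Arid1a/b DKO livers, with 133 counts. WT livers of 9 days had 0.161 and 0.0637 CPM and Arid1a KO livers 0.296 and 0.241. The log2 fold change was 3.63 ± 0.68 against WT (adjusted p = 0.00376) and 2.23 ± 0.60 against Arid1a KO (adjusted p = 0.0228). Without WT replicate 2 the first was 2.93 with an adjusted p of 0.0545. The second call was lost without any 1 of the 4 libraries (2.06 to 2.36, adjusted p up to 0.162) and by DESeq2's Wald test (adjusted p = 0.0631). Nuak2, a kinase of the AMPK family and a YAP target, was 16.1 and 13.0 CPM in Arid1a/b DKO livers and 21.3 and 26.4 in WT. The groups did not overlap, but the difference was not called (-0.71 ± 0.37, adjusted p = 0.174).

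Axl encodes a receptor tyrosine kinase that is a YAP target in carcinoma cells and is also expressed by liver macrophages. Its level was 213 and 120 CPM in Arid1a/b DKO livers, 41.9 and 69.3 in 9-day WT and 52.2 and 77.6 in 9-day Arid1a KO livers. The rise against WT was 2.99-fold (log2 1.58 ± 0.51, adjusted p = 0.0415). It was not called without Arid1a/b DKO replicate 1 (1.11, adjusted p = 0.226), without WT replicate 1 (1.25, adjusted p = 0.241) or without WT replicate 2 (1.99, adjusted p = 0.0705). Against Arid1a KO the difference was 1.36 ± 0.50 (adjusted p = 0.0768 by edgeR, 0.0256 by DESeq2). The summed level of 12 macrophage markers moved with Axl, at 3517 and 2050 CPM in Arid1a/b DKO livers and 916 and 1730 in WT. Axl as a percentage of that sum was 6.04 and 5.83 in Arid1a/b DKO livers, above 4.58 and 4.01 in WT and 4.71 and 3.27 in Arid1a KO livers of 9 days, and between 3.27 and 6.07 over all 16 libraries. No macrophage marker of the list was at 0 in any group.

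**Figure D3:**
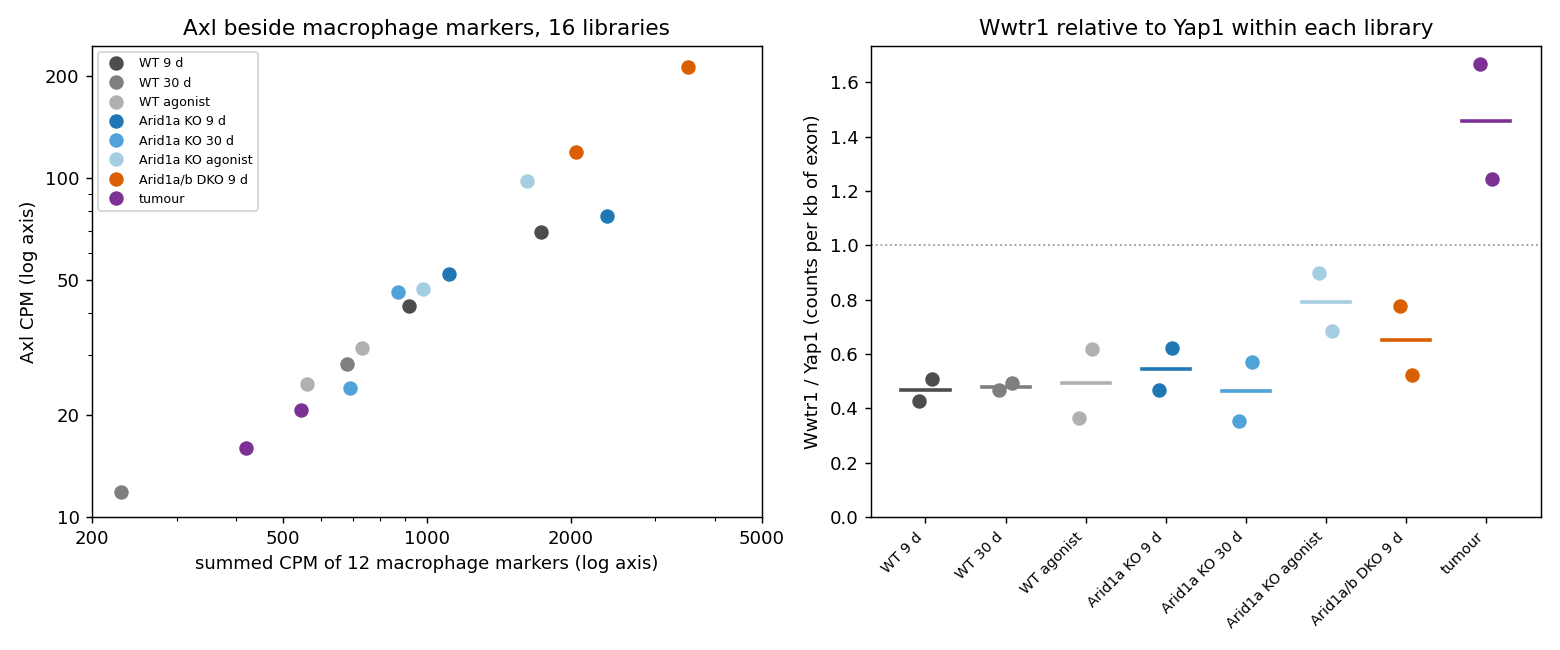
Left, Axl in CPM against the summed CPM of 12 macrophage markers in each of 16 libraries, both axes logarithmic. Right, the ratio of Wwtr1 to Yap1 counts per kb of exon in each library with the group mean as a bar; both tumour libraries, at 1.67 and 1.24, lie above 1 (dotted), and the other 14 lie below.

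Marker genes of other cells also moved in Arid1a/b DKO livers, beside all of the results above. In this comparison with 9-day WT livers, 12.6% of all genes tested were called higher and 13.8% lower. Of 12 stellate cell and fibroblast markers 8 were called higher than in 9-day WT livers, with a summed level of 2483 and 1171 CPM against 311 and 401. Of 5 smooth muscle markers 4 were called higher (149.6 and 73.8 CPM against 11.99 and 14.1). Of 9 cholangiocyte markers 3 were called higher and 1 lower (442 and 173 CPM against 78.8 and 62.0). Most of that sum in Arid1a/b DKO livers was Spp1, at 403 and 140 CPM against 45.2 and 30.4, and Krt19 and Krt7 were not called. Of 10 endothelial markers 3 were called higher, and of 12 macrophage markers 1 was. Of 12 proliferation genes 8 were called higher (138.5 and 385 CPM against 37.5 and 100.1). Of 10 hepatocyte markers 6 were called lower. Several of these cell types express YAP/TAZ targets, and the part of these markers in the levels of Ankrd1, Fjx1, Ajuba, Wwtr1 and Tead1 was not tested.

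The wider pathway was read from 5 lists that hold none of the 10 genes and of which 58 genes were tested. These lists too were chosen with earlier results of these data known. Of these 58 genes 21 were called in Arid1a/b DKO against WT, beside 26.4% of all genes called and 12.6% called higher. Other YAP/TAZ targets had 8 of 19 called higher and 1 lower in Arid1a/b DKO against WT, with a median log2 fold change of 1.49. The connective tissue growth factor gene Ccn2 was 113 and 33.5 CPM against 10.9 and 10.2 in WT (log2 2.81 ± 0.60, adjusted p = 0.0074), and its relative Ccn1 rose by a log2 fold change of 2.73 ± 0.75 (adjusted p = 0.0224). Tgfb2, a transforming growth factor, rose by 3.002 ± 0.65 (adjusted p = 0.00802), the matrix gene Ccdc80 by 2.81 ± 0.55 (adjusted p = 0.00463), Arhgef17 by 1.44 ± 0.28 (adjusted p = 0.00424) and the membrane repair gene Myof by 2.48 ± 0.53 (adjusted p = 0.00717). Crim1 was also called higher. F3, tissue factor, was the member called lower (log2 -2.10 ± 0.47, adjusted p = 0.00902). Areg, which encodes the growth factor amphiregulin, had 0 counts in both 9-day WT libraries and 0.287 and 0.882 CPM in Arid1a/b DKO livers. Several of the genes that rose are also expressed by fibroblasts, whose markers rose in the same libraries. Of the abundant targets not called, Dock5 had a log2 fold change of 0.43 ± 0.20, Nt5e 0.26 ± 0.58 and Igfbp3 -0.39 ± 0.37.

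Upstream of the coactivators, 5 of 12 cell polarity and junction genes were called higher in Arid1a/b DKO against WT and 0 lower, with a median log2 fold change of 0.70. Of all genes tested, 12.6% were called higher. The 5 polarity and junction genes included the tight junction scaffold Tjp1 (1.13 ± 0.19, adjusted p = 0.00228), the Crumbs-complex gene Patj (1.47 ± 0.31, adjusted p = 0.00659), the FERM gene Frmd6 (1.26 ± 0.34, adjusted p = 0.0222) and the protocadherin Dchs1 (1.38 ± 0.42, adjusted p = 0.0338). Among 13 Hippo kinases and adaptors, Map4k4 (2.10 ± 0.43, adjusted p = 0.00569) and Wwc2 (0.69 ± 0.22, adjusted p = 0.0433) rose and Taok2 fell (-0.66 ± 0.16, adjusted p = 0.0145). The kinases and partners of the core cassette, Stk3, Stk4, Sav1, Lats1, Mob1a and Mob1b, were not called, with log2 fold changes from -0.60 (Mob1b, adjusted p = 0.105) to 0.37 (Sav1). Of 10 cytoplasmic partners of YAP, Wtip, an Ajuba-family gene, rose by 1.76 ± 0.40 (adjusted p = 0.00948) and the casein kinase gene Csnk1e by 1.39 ± 0.30 (adjusted p = 0.00788). Vgll4, which encodes a competitor of YAP for TEAD, fell from 36.2 and 44.0 CPM in WT to 19.6 and 19.0 (log2 -1.05 ± 0.20, adjusted p = 0.00413), and Vgll3, another TEAD cofactor, rose from 0.483 and 0.127 CPM to 2.10 and 0.689 (log2 2.37 ± 0.74, adjusted p = 0.0374).

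**Figure D4:**
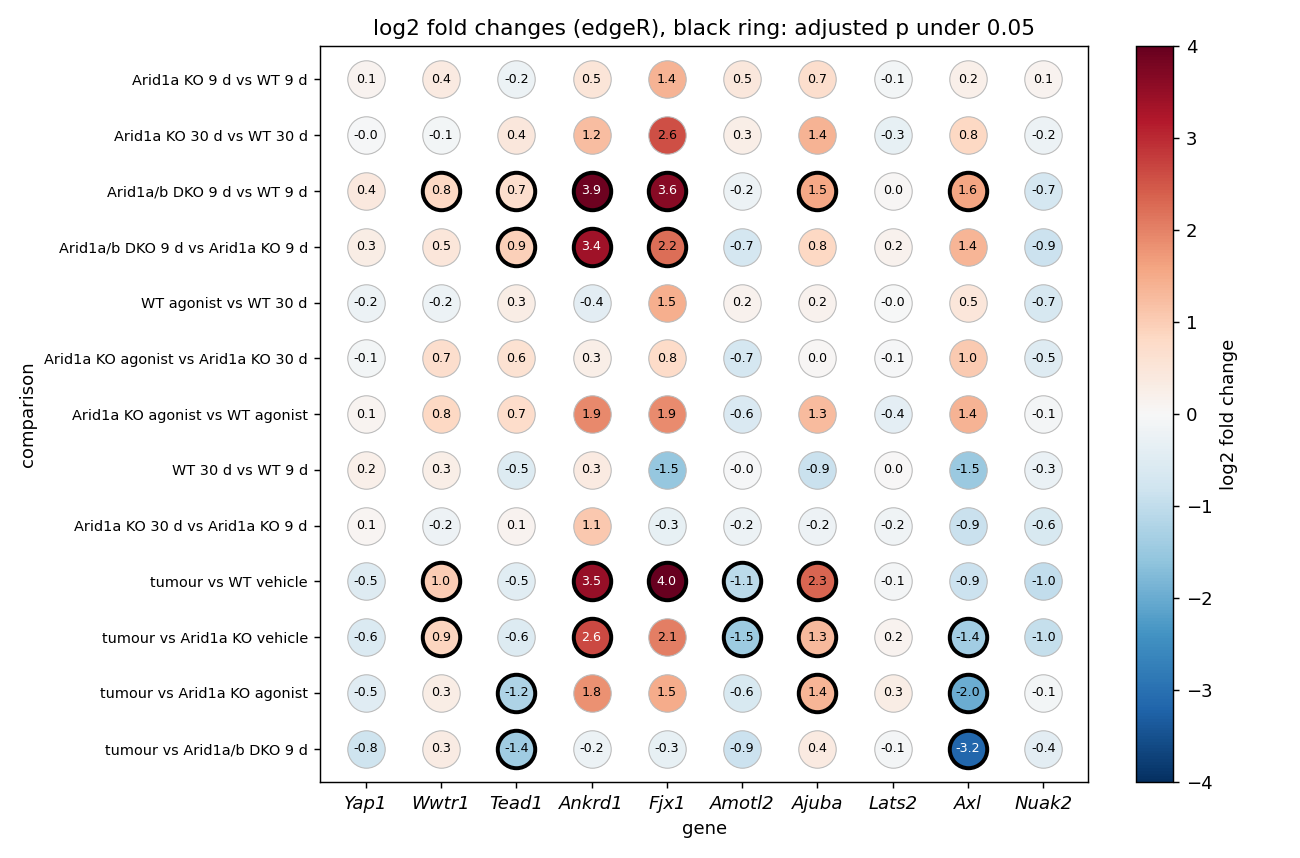
Log2 fold changes of the 10 genes (x axis) in 13 comparisons (y axis), as colour from blue (lower) to red (higher) and as the printed value; a black ring marks an adjusted p under 0.05 by edgeR. Rings appear in the Arid1a/b DKO and tumour rows, and Yap1, Lats2 and Nuak2 have none.

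Loss of Arid1a alone had no call among the 10 genes by edgeR at 9 days (0 of 10 at an unadjusted p under 0.05, 0 by DESeq2 and 0 by limma; 0.566% of all genes called). At 30 days edgeR again called 0 of them, with 2 at an unadjusted p under 0.05, 1 by DESeq2 and 0 by limma, beside 0.516% of all genes. The 1 gene called by DESeq2 was Ajuba. Its level in 30-day livers was 24.8 and 32.8 CPM in Arid1a KO and 12.2 and 9.90 in WT, a log2 fold change of 1.39 ± 0.35 (adjusted p = 0.148 by edgeR, 0.0187 by DESeq2). At 9 days the Ajuba value was 0.71 ± 0.34 (adjusted p = 0.519). In both times all Arid1a KO libraries lay above all WT libraries, and the difference between the times was not called (0.68 ± 0.49, adjusted p = 1). Fjx1 had 8 counts in 30-day Arid1a KO livers and 1 in 30-day WT livers, a ratio of 7.18 with a 95% counting interval of 0.962 to 319. Of the 58 pathway genes, 0 were called by edgeR at either time, with 3 at an unadjusted p under 0.05 each.

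In the agonist groups, 0 of the 10 genes were called in either genotype by edgeR, DESeq2 or limma. At an unadjusted p under 0.05 there were 0 in WT and 2 in Arid1a KO, where 0.028% and 0.869% of all genes were called (0.32% lower in the latter). Between the genotypes under agonist, edgeR and limma called 0 of 10, DESeq2 called 3, and 6 had an unadjusted p under 0.05, with 4.95% of all genes called (3.05% higher and 1.91% lower). Wwtr1 was 49.2 and 39.3 CPM in Arid1a KO agonist livers and 22.1 and 27.9 in WT agonist livers. The log2 fold change was 0.82 ± 0.22 (adjusted p = 0.058 by edgeR, 0.0202 by DESeq2, and 0.0424 by edgeR with a replicate block). Its rise in Arid1a KO livers against their own vehicle was 0.70 ± 0.22 (adjusted p = 0.194), and the difference of the genotype effect between agonist and vehicle was 0.94 ± 0.31 (adjusted p = 0.691).

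Tead1 was 31.4 and 26.2 CPM in Arid1a KO agonist livers and 18.0 and 16.5 in WT agonist livers (0.74 ± 0.23, adjusted p = 0.0935 by edgeR, 0.0482 by DESeq2). Ajuba was 35.2 and 23.9 CPM against 15.1 and 9.995 (1.25 ± 0.35, adjusted p = 0.068 by edgeR, 0.0149 by DESeq2). For all 3 genes the groups did not overlap, which also held for Ankrd1, Fjx1, Axl and, lower in Arid1a KO, Lats2. The share of all genes without overlap was not computed, so this describes the levels only. Axl was 98.3 and 47.2 CPM against 31.5 and 24.7 (1.38 ± 0.51, adjusted p = 0.15), beside summed macrophage markers of 1619 and 982 CPM against 731 and 561. Summed stellate cell and fibroblast markers were 1030 and 569 CPM against 299.5 and 317, with 2 of 12 called higher. Of 12 proliferation genes 11 were called higher (188 and 125 CPM against 11.8 and 13.5). Of 9 cholangiocyte markers 1, Spp1, was called higher, at 335 and 221 CPM against 43.2 and 34.2. It made up most of the sum of the 9 in the Arid1a KO agonist livers, which was 367 and 252 CPM against 73.1 and 58.01. The part of these markers in the values of the 10 genes was not tested. Fjx1 had 17 counts against 3, a ratio of 4.24 with a 95% counting interval of 1.23 to 22.6.

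In 30-day livers Yap1 was 128 and 111 CPM in WT vehicle, 117 and 87.0 in WT agonist, 128 and 105 in Arid1a KO vehicle and 106 and 111 in Arid1a KO agonist livers. Wwtr1 was 31.0 and 28.3 CPM in WT vehicle and 23.4 and 31.0 in Arid1a KO vehicle livers, overlapping. Tead1 was 17.7 and 10.4 CPM in WT vehicle and 19.8 and 18.3 in Arid1a KO vehicle livers. For Wwtr1 and Tead1 all of these vehicle values lay below those of the Arid1a KO agonist livers, and for Yap1 they did not.

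Amotl2 varied widely within groups, at 44.8 and 72.1 CPM in WT vehicle, 39.3 and 91.6 in WT agonist, 58.6 and 81.8 in Arid1a KO vehicle and 39.1 and 47.6 in Arid1a KO agonist livers of 30 days, and at 93.0 and 72.8 in Arid1a KO livers of 9 days. Nuak2 was 11.1 and 27.9, 9.55 and 14.99, 15.1 and 18.6 and 11.03 and 12.3 CPM in the same 30-day groups, and 23.4 and 29.4 in 9-day Arid1a KO livers. Lats2 was 12.2 and 12.9, 13.7 and 11.5, 8.80 and 11.1 and 11.4 and 7.78 CPM in them, and 12.4 and 10.3 in 9-day Arid1a KO livers. None of the 3 genes was called among the livers in any comparison. Axl was 24.0 and 46.1 CPM in 30-day Arid1a KO vehicle livers. Ankrd1 was 0.192 and 0.318 CPM in WT vehicle, 0.121 and 0.240 in WT agonist, 0.343 and 0.839 in Arid1a KO vehicle and 0.703 and 0.828 in Arid1a KO agonist livers, each from 7 to 35 counts per group. Fjx1 was 0 and 0.0454, 0.121 and 0.080, 0.114 and 0.255 and 0.211 and 0.463 CPM in the same order.

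Of the other pathway genes, 3 of 58 were called between Arid1a KO agonist and Arid1a KO vehicle livers. Nt5e, an ecto-nucleotidase listed as a YAP/TAZ target, was 121 and 118 CPM under agonist and 1.83 and 4.19 under vehicle at 30 days (log2 5.22 ± 0.71, adjusted p = 0.0103). The stress gene Gadd45b rose by 3.37 ± 0.59 (adjusted p = 0.0255). Its value in WT livers was of similar size but not called (3.49 ± 0.60, adjusted p = 0.108), at 11.4 and 21.9 CPM under agonist and 0.959 and 1.91 under vehicle, and the difference between the genotypes was -0.11 ± 0.78 (adjusted p = 1). In Arid1a KO livers Vgll4 fell by 1.16 on the log2 scale, SE 0.20 (adjusted p = 0.0255). Nt5e was 22.9 and 9.63 CPM in 30-day WT vehicle livers, both above the 30-day Arid1a KO vehicle libraries. In WT agonist livers Nt5e was 15.6 and 6.40 CPM, and the genotypes differed under agonist by 3.49 ± 0.65 (adjusted p = 0.0156). The difference of its genotype effect between agonist and vehicle was not called (5.81 ± 0.92, adjusted p = 0.103). At 9 days, Nt5e was 46.9 and 61.0 CPM in WT and 35.3 and 27.5 in Arid1a KO vehicle livers, all above the 30-day Arid1a KO vehicle libraries. Map4k4 (1.92 ± 0.43, adjusted p = 0.0292) and Vgll4 (-1.09 ± 0.20, adjusted p = 0.0153) also differed between the agonist groups.

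Time after tamoxifen had no call among the 10 genes in WT or Arid1a KO livers by edgeR, DESeq2 or limma. At an unadjusted p under 0.05 there were 3 in WT and 0 in Arid1a KO, and 0.0224% (0.0168% lower) and 0.0112% of all genes were called. Axl in WT was 41.9 and 69.3 CPM at 9 days and 28.3 and 11.9 at 30 days, without overlap (log2 fold change -1.49 ± 0.51, adjusted p = 0.403). The summed macrophage markers of the same libraries were 916 and 1730 CPM at 9 days and 680 and 230.2 at 30 days. The tests of a genotype effect that differs with time or with agonist called 0 of the 10 genes by edgeR, DESeq2 and limma, with 0 and 1 at an unadjusted p under 0.05, beside 0% and 0.00561% of all genes.

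The Arid1a KO/BcatEXON tumours shared the high Ankrd1, Wwtr1 and Ajuba of the Arid1a/b DKO livers but not the high Tead1 and Axl. Ajuba, Ankrd1, Wwtr1 and Fjx1 rose and Amotl2 fell against WT vehicle livers (both times), where 36.6% of all genes were called, 20.5% higher and 16.1% lower. Against Arid1a KO vehicle livers Ajuba, Ankrd1 and Wwtr1 rose and Amotl2 and Axl fell, beside 33.1% of all genes called, 18% higher and 15.2% lower. Calls for 5 of 10 genes are not far above these shares, and the count itself is not read as a result about the 10 genes, whose median log2 fold changes were -0.26 and -0.20. The tumour comparisons share 9-day control libraries with those of the Arid1a/b DKO livers. Against WT, 11 of 12 proliferation genes and 4 of 9 cholangiocyte markers were called higher, 7 of 10 endothelial markers were called lower and 1 higher, and 3 of 10 hepatocyte markers were called lower. The part of these markers in the results on the 10 genes was not tested.

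Ajuba was 56.6 and 94.4 CPM in the tumours, and both exceeded all vehicle livers of WT (9.90 to 20.7) and Arid1a KO (24.8 to 38.1). The log2 fold change was 2.34 ± 0.30 against WT (adjusted p = 0.000158), and the call was kept in each of 13 alternatives, with values of 1.87 to 2.78. Against Arid1a KO it was 1.29 ± 0.30 (adjusted p = 0.00671), which was 0.82 with an adjusted p of 0.104 without tumour replicate 2. Ankrd1 was 3.18 and 2.32 CPM in the tumours and at most 0.402 in WT and 0.839 in Arid1a KO vehicle livers. Its log2 fold changes were 3.49 ± 0.59 against WT (adjusted p = 0.000882) and 2.63 ± 0.56 against Arid1a KO (adjusted p = 0.00413), and both were called in each of 13 alternatives. Ankrd1 is also expressed in striated muscle, and the summed level of 9 striated muscle markers was 18.0 and 4.80 CPM in the tumours and at most 1.45 in the livers, with Mylpf and Acta1, the 2 tested, called higher against WT and Arid1a KO. In Arid1a/b DKO livers, where Ankrd1 was also high, that sum was 1.17 and 0.705 CPM, and the part of these markers in the tumour values was not tested. With the tumours in the fit, Ankrd1 and Fjx1 passed the low-count filter through 7 and 4 of 16 libraries, none of them WT. Their calls in the tumours describe levels and are not read as support. Fjx1 was 1.93 CPM in tumour replicate 1 and 0.202 in replicate 2, so that the libraries of this group did not resemble each other. Its log2 fold change against WT was 4.04 ± 0.91 (adjusted p = 0.00504), with 4 and 1 counts in the WT groups, and 1.79 with an adjusted p of 0.172 without tumour replicate 1. Against Arid1a KO it was 2.06 ± 0.78 (adjusted p = 0.0603), with 2.95 and an adjusted p of 0.00499 without tumour replicate 2, and -0.21 without replicate 1.

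Of the coactivators, Wwtr1 was called higher in the tumours and Yap1 was not called. Wwtr1 was 39.4 and 69.2 CPM, above all vehicle livers of WT and Arid1a KO (22.6 to 36.4), and rose by 1.01 ± 0.23 on the log2 scale against WT (adjusted p = 0.00507) and 0.90 ± 0.23 against Arid1a KO (adjusted p = 0.0112). Without tumour replicate 2 these were 0.49 (adjusted p = 0.148) and 0.37 (adjusted p = 0.286). The second was also lost without Arid1a KO 30-day replicate 1 (0.78, adjusted p = 0.0536) or 9-day replicate 1 (0.78, adjusted p = 0.0586). Yap1 was 45.7 CPM in tumour replicate 1, the lowest of the 16 libraries, and 108 in replicate 2, and was not called against WT (-0.52 ± 0.30, adjusted p = 0.194) or Arid1a KO (-0.56 ± 0.30, adjusted p = 0.167). Without tumour replicate 2 it was called lower, by -1.32 (adjusted p = 0.00506) and -1.37 (adjusted p = 0.00475). Taken within each library, which removes its scaling, the ratio of Wwtr1 to Yap1 counts per kb of exon was 1.67 and 1.24 in the tumours and at most 0.900 elsewhere. The ratio was 0.900 and 0.686 in Arid1a KO agonist livers, 0.778 and 0.525 in Arid1a/b DKO livers and between 0.355 and 0.622 in the other 10 libraries. This ratio was chosen after the values were seen and is a description. An exact permutation test of it is not read as support, because the same values led to the choice.

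Tead1 was 12.6 and 12.03 CPM in the tumours, below every liver library except WT 30-day replicate 2 at 10.4. It was lower than in Arid1a KO agonist livers (log2 -1.22 ± 0.24, adjusted p = 0.00499), where 20.1% of all genes were called, and not called against Arid1a KO vehicle livers (-0.56 ± 0.21, adjusted p = 0.0586) or WT vehicle livers (-0.45 ± 0.21, adjusted p = 0.108; 0.028 without WT 30-day replicate 2). Amotl2 was 20.3 and 35.2 CPM, below the 36.9 CPM of the next lowest library. It fell by 1.09 on the log2 scale against WT (SE 0.37, adjusted p = 0.0384) and by 1.45 against Arid1a KO (SE 0.38, adjusted p = 0.0122). Without tumour replicate 1 these values were -0.75 (adjusted p = 0.254) and -1.12 (adjusted p = 0.111). The call against WT was also lost without WT 30-day replicate 2 (-0.88, adjusted p = 0.123) and without either 9-day WT library (-1.07, adjusted p = 0.0908; -1.14, adjusted p = 0.0694). Nuak2 was 6.13 and 15.4 CPM and not called (-0.99 ± 0.40 against WT, adjusted p = 0.0721). Without tumour replicate 2 it was called lower, by -1.88 (adjusted p = 0.0128) against WT and -1.84 (adjusted p = 0.0151) against Arid1a KO, and without WT 30-day replicate 1 by -1.26 (adjusted p = 0.0308). Lats2 was 11.3 and 12.3 CPM, inside the range of 7.78 to 13.7 of all 16 libraries.

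Axl was 20.6 and 16.02 CPM in the tumours, the lowest group mean. It was below Arid1a KO vehicle livers (log2 -1.39 ± 0.45, adjusted p = 0.0337) and Arid1a KO agonist livers (-1.99 ± 0.51, adjusted p = 0.0176), and not called against WT (-0.87 ± 0.44, adjusted p = 0.145). The first call was lost without any 1 of Arid1a KO 9-day replicate 2, Arid1a KO 30-day replicate 2 and both tumour libraries (adjusted p of 0.0876 to 0.132) and with 30-day livers alone as control (-0.95, adjusted p = 0.181). The second was lost without tumour replicate 1 (-2.18, adjusted p = 0.052), tumour replicate 2 (-1.86, adjusted p = 0.0642) or agonist replicate 1 (-1.41, adjusted p = 0.153). Of 12 macrophage markers 8 were called lower and 1, Cd68, higher against Arid1a KO vehicle livers, and their sum was 545 and 420 CPM, against 692 to 2372. The Kupffer cell gene Clec4f was 18.0 and 20.4 CPM in the tumours and 148 to 440.5 in those livers. Axl was 3.79 and 3.82% of the macrophage marker sum in the tumours, inside the range of the livers. That sum includes Cd68, which rose there (log2 3.13 ± 0.48 against Arid1a KO vehicle livers, adjusted p = 0.000567), opposite to Clec4f (-3.62 ± 0.48). The share therefore depends on the markers summed, and the share without Cd68 is not given. Whether Axl fell in step with macrophages was not tested.

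A direct comparison of tumours with Arid1a/b DKO livers was added after the values were seen. Of the 10 genes Tead1 (log2 -1.42 ± 0.24, adjusted p = 0.0014) and Axl (-3.18 ± 0.53, adjusted p = 0.00133) were called, both lower in the tumours, and both were called in each of 10 alternatives. The background was 28.6% of all genes called and 13.1% called lower. Ankrd1 (-0.24 ± 0.61), Fjx1 (-0.34 ± 0.82), Ajuba (0.36 ± 0.36) and Wwtr1 (0.31 ± 0.27) did not pass the test, which does not show that their levels were equal. Against Arid1a KO agonist livers Ajuba was higher in the tumours (1.36 ± 0.37, adjusted p = 0.0227). That call was lost without tumour replicate 2 (0.89, adjusted p = 0.135) or either agonist library (1.63, adjusted p = 0.0739; 1.09, adjusted p = 0.167).

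The tumours differed from WT vehicle livers in 22 of the 58 pathway genes, beside 36.6% of all genes called. That count is not read as a result about the pathway. Of the other YAP/TAZ targets 7 of 19 were called higher in the tumours against WT and 0 lower, beside 20.5% of all genes called higher. Their median log2 fold change was 0.69. Ptpn14, a phosphatase that binds YAP and is also its target, was 43.5 and 97.1 CPM in the tumours and at most 11.6 in any liver (log2 4.12 ± 0.38 against WT, adjusted p = 1.93e-05). Tgfb2 rose by 2.86 ± 0.51 (adjusted p = 0.00123) and Gadd45b by 2.80 ± 0.45 (adjusted p = 0.00062). Areg was 3.63 and 1.77 CPM, and Nt5e, Ccn2 and Myof were also called. Among kinases and adaptors Map4k4 rose (2.07 ± 0.33, adjusted p = 0.000628), while the kinases Taok2 (-0.72) and Stk4 (-0.59) and the MOB adaptors Mob1b (-1.08) and Mob1a (-0.50) were called lower. Csnk1e (2.15 ± 0.29, adjusted p = 0.000226), Wtip (1.80 ± 0.45, adjusted p = 0.00868) and Csnk1d (0.61 ± 0.13, adjusted p = 0.00359) rose among the cytoplasmic partners. Limd1, an Ajuba-family gene, fell there (-1.05 ± 0.19, adjusted p = 0.00129), opposite to Ajuba and Wtip. Vgll4 (-1.33 ± 0.20, adjusted p = 0.000422), Tead3 (-0.87 ± 0.20, adjusted p = 0.00574) and Tead2 (-1.38 ± 0.46, adjusted p = 0.0341) fell, so that 3 of 5 TEAD family and VGLL genes tested were called lower and 0 higher. Scrib (0.66 ± 0.20, adjusted p = 0.0206), Frmd6 (0.97 ± 0.29, adjusted p = 0.0207) and Patj (1.03 ± 0.25, adjusted p = 0.00721) rose among the polarity genes.

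The 10 genes did not move as 1 block across the 16 libraries. As a description of libraries that share groups and scaling, Tead1 and Axl had the highest pairwise Pearson correlation of log2(CPM + 1) at 0.87. Ankrd1 and Fjx1 followed at 0.82, Wwtr1 and Ajuba at 0.75 and Amotl2 and Nuak2 at 0.73. The lowest was Ankrd1 with Amotl2 at -0.60. Outside the set, the genes most like the mean of the 10 were Ubap2, Plekhm2, Tmpo, Tnfrsf21, Kif11, Det1, H1f10 and Ncapg2, with r from 0.91 to 0.94 over 16 libraries. Kif11 and Ncapg2 are genes of mitosis. Axl was nearest to Laptm5 (0.99) and Vav1 (0.99), both genes of blood cells, and Ankrd1 to Myom1 (0.96), a gene of the sarcomere M band, and Cd24a. Myom1 was 83.9 and 33.8 CPM in Arid1a/b DKO livers, 50.03 and 42.0 in the tumours and at most 3.56 in the other 12 libraries. Ajuba was nearest to Ier5 (0.96), Wwtr1 to the actin-binding gene Cttn (0.93), Amotl2 to Polr2m (0.94), Yap1 to Ptpn11 (0.91), Tead1 to Cd180 (0.91), Fjx1 to Casz1 (0.92), Nuak2 to Smim4 (0.87) and Lats2 to Nme7 (0.78).

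Positions from GENCODE M21 (GRCm38) place Yap1 at chr9:7931999-8004596 and Amotl2 at chr9:102716672-102733418, Wwtr1 at chr3:57455649-57575910, Tead1 at chr7:112679318-112906807 and Axl at chr7:25757273-25788705. Lats2 lies at chr14:57689662-57758388 and Ajuba at chr14:54567472-54577558, Ankrd1 at chr19:36111961-36120099, Fjx1 at chr2:102449366-102452499 and Nuak2 at chr1:132316126-132333488. All are protein-coding and counted over their exons. Lats2 overlaps the same-strand coding gene Gm49361 and, on the opposite strand, Gm20430 and Gm26440. Yap1, Wwtr1 and Tead1 overlap genes on the opposite strand (Gm20416, Gm16016 and 2310014F06Rik), and Tead1 also the same-strand microRNA gene Gm44462. The strand setting of the counting is not stated, so reads of these overlapping stretches cannot be assigned with certainty.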

How the data were processed

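Polyadenylated RNA of whole liver and isolated tumours was sequenced from TruSeq libraries, per the labels' protocols. Per the submitters' processing notes, the authors used fastp, STAR 2.7.3 and featureCounts with GRCm38.p6; the annotation release and strand option are not stated there. The deposited count table of the authors holds whole reads per gene. The normalized file deposited by the authors holds signal values, shown by a check of the file to be the counts multiplied by a constant for each library. It served as an alternative only.

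Counts of the 14 liver libraries were fitted in edgeR 4.0.16 (R 4.3.3) with 1 coefficient per group, low counts removed by filterByExpr, scaling by TMM and tests by quasi-likelihood (17831 genes, 7 residual degrees of freedom). Tumour comparisons used all 16 libraries (18193 genes, 8 degrees of freedom). The SE was derived from the fold change and its F statistic, as |log2 fold change| over √F. Controls for the tumours are the mean of both vehicle times, unless named. The square root of the common dispersion was 29.3% in livers and 32.1% with tumours. The 2 libraries of a group are biological replicates per the labels. The p-values weigh a group difference against a spread estimated over all groups of the fit, not from the compared groups alone. Statements that groups of 2 libraries did not overlap describe levels, as the share of all genes without overlap was not computed.

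The 10 genes and the 17 other gene lists were chosen with earlier results of these data known. From each pathway list up to 5 called genes per comparison, by p, and up to 3 abundant others were eligible to be named, and genes beyond these were named after their values were seen. Members of lists absent from the file under that symbol were left out. Correlations use log2(CPM + 1), and candidates for likeness had a mean of at least 2 CPM. Ratios with 1 to 3 counts carry a 95% exact counting interval, which covers counting error only. Exon lengths and positions come from GENCODE M21, promoter sequences from RefSeq. As alternatives, DESeq2 1.42.0, limma 3.58.1 (trend, on the normalized file), RLE scaling, unfiltered genes, a block for the replicate number, fits of all 16 or only the compared libraries, 30-day livers alone as tumour control, and omission of each library in turn were run. The comparison of tumours with Arid1a/b DKO livers was added after the data were seen. The procedure was tested on simulated data. Figures used matplotlib 3.10.9.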

Additional observations from a re-analysis of the deposited data

How the results depend on the processing

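Of 278 alternative values of calls among the 10 genes, 224 kept direction and call, 54 lost the call and 0 changed direction; 44 of the 54 came from leaving out 1 library. Of 318 values of differences not called, 34 gained a call, 13 of them without the low-count filter. The reversals were Amotl2 in Arid1a/b DKO against WT (0.11 without Arid1a/b DKO replicate 1, and -0.73 without replicate 2) and Fjx1 in tumours against Arid1a KO vehicle livers (-0.21 without tumour replicate 1, and 2.95 without replicate 2). RLE scaling changed no call. The cause of the other changes was not tested.

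With 1 library left out, the number of the 10 genes called was 2 to 5 in Arid1a/b DKO against WT, 0 to 2 against Arid1a KO, 3 to 6 in tumours against WT, 3 to 5 against Arid1a KO vehicle and 1 to 3 against Arid1a KO agonist livers. Without the low-count filter it was 1 in Arid1a KO against WT at 30 days, 5 in Arid1a/b DKO against Arid1a KO, 1 in Arid1a KO agonist against vehicle, 3 between the agonist groups, 1 (lower) for time in each of WT and Arid1a KO, and 4 in tumours against Arid1a/b DKO. DESeq2 gave 1 in Arid1a KO against WT at 30 days and 3 between the agonist groups. With only the libraries compared in the fit it was 5 in Arid1a/b DKO against Arid1a KO and 1 in tumours against Arid1a KO agonist livers.

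Replicate numbers were not taken to pair the samples: over 28 pairs of groups, the correlation of deviations of same-numbered libraries ran from -0.154 to 0.475, with 14 over 0.1. In every group replicate 1 had a lower total count than replicate 2. Within the 4 groups of 30-day livers each of the 6 values lay between 0.216 and 0.475, which was noticed after the data were seen. With a replicate block, 1 of the 10 genes was called between the agonist groups (Wwtr1, adjusted p = 0.0424), Nuak2 was called lower in tumours against WT (adjusted p = 0.027) and Arid1a KO (adjusted p = 0.0299), Tead1 lower in tumours against Arid1a KO (adjusted p = 0.0411), and Axl in Arid1a/b DKO against WT had an adjusted p of 0.0521.

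Over all genes, calls in Arid1a/b DKO against WT numbered 4710, and 1855 to 3374 with 1 library left out; against Arid1a KO, 3928 and 1618 to 2750. Arid1a KO against WT gave 101 at 9 days (17 to 33) and 92 at 30 days (1 to 177), and the agonist groups 883 (74 to 471). Ankrd1 and Fjx1 rest on few counts in WT livers, which limits their fold changes.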
